A study of Mus musculus with 3 samples.

Results

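The Ly6/uPAR genes described here are *Slurp1*, *Lypd1*, *Lypd2*, *Lypd3*, *Ly6d*, *Ly6a*, *Ly6c1*, *Ly6e* and *Ly6g6c*, 9 of the 31053 genes counted in the series. They are members of this family chosen with earlier results of these data known, and other family genes are described further below. Their unique molecular identifiers (UMIs, counted RNA molecules) were read in every kept cell by deposited cell label and by library. Ly6/uPAR proteins share a small fold of disulfide-bonded loops. Most sit on the outer cell membrane through a lipid (GPI) anchor, and a few, such as SLURP1, are secreted. Several bind nicotinic acetylcholine receptors, others mark stem, endothelial or lymphoid cells, and SLURP1 is known in the cornea as an abundant secreted product of the surface epithelium whose gene depends on the transcription factor KLF4.

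The study profiled dissociated tissue from the iridocorneal angle and limbus of the mouse eye by droplet (10x) single-cell RNA sequencing, to describe cells of the aqueous outflow pathway with and without neural crest *Angpt1*. There were 2 control libraries from *Angpt1* flox/flox mice and 1 *Angpt1*ΔNC library from *Angpt1* flox/flox;Wnt1Cre+ mice, in which Wnt1-Cre drives deletion in neural crest derivatives. All mice were 6 weeks old and of mixed strain after crossing onto albino ICR mice, and controls carried the same floxed alleles without Cre. Each library was a pool of eyes from 2 to 3 mice, with both sexes pooled according to the labels, so the spread between the control libraries is a spread between pools.

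After the authors' filters the libraries held 9076 cells (control 1), 10160 cells (control 2) and 6772 cells (*Angpt1*ΔNC), with 76981606, 80346829 and 66484181 UMIs. The median cell held 6329.5, 6393.5 and 7444 UMIs. Of the kept barcodes, 25 occurred in both controls, 14 in control 1 and *Angpt1*ΔNC, and 13 in control 2 and *Angpt1*ΔNC. *Angpt1*, the deleted gene, had 2911, 3158 and 26 UMIs, in the direction the labels give. *Xist*, the transcript of the inactive X chromosome in females, had 3, 2 and 43346 UMIs, and the Y-linked *Ddx3y* had 7743, 9261 and 3267. By these genes the controls held almost no female cells while the *Angpt1*ΔNC pool held both sexes, against the labels, so sex and genotype cannot be told apart over all cells. Genotype values were therefore also computed in cells typed as male (6325, 7326 and 1990 cells). *Hbb-bs*, a red blood cell transcript, also set the libraries apart with 77947, 44010 and 159446 UMIs.

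Labels are the authors' clusters, here 35, of which 34 had at least 10 cells in every library. They were made from the expression of the same cells, so differences between labels are given as descriptions with no test. A level is the UMIs of a gene per 10,000 UMIs in a cell, averaged over the cells, and is given for control 1, control 2 and *Angpt1*ΔNC in that order. In cluster 5 the summed level of 4 corneal epithelial markers was 314, 257 and 230, led by *Krt12*. In cluster 3 the 4 conjunctival markers summed to 25.0, 26.1 and 25.7, while the corneal markers there reached 72.7, 71.0 and 50.4, led by *Krt5*. *Krt5* also led that sum in the limbal cluster 4 (46.7, 36.6 and 30.2). In cluster 22 the T cell markers summed to 11, 10.0 and 20 and the B cell markers to 23.9, 19.7 and 9.92. TM10 carried the *Cd34* fibroblast markers at 64.1, 54.2 and 83.0, and its corneal epithelial markers were at 0.670, 0.478 and 1.92. Blood endothelial sums were 49.9, 41.9 and 53.0 in EC2, 42.6, 47.4 and 50.6 in EC3 and 41.6, 46.6 and 50.1 in EC4. *Angpt1*ΔNC was the highest library in each of these endothelial labels. The Schlemm's canal label SC had 24.7, 26.6 and 29.7 for the same genes. Cluster 17 is a stromal label in which *Lum* reached 13.3, 13.4 and 11.1 while the keratocyte gene *Kera* was at 0.0133, 0.0166 and 0.00354.

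*Slurp1*, the secreted member, was a cluster 5 transcript. Its level there was 10.1, 6.35 and 6.52, a mean of 7.67 ± 2.13 (SD, n = 3 libraries), and clusters 3 and 5 together held 99.2% of its 31881 UMIs. In cluster 5 at least 1 *Slurp1* UMI was found in 80.9%, 66.3% and 58.9% of 575, 505 and 270 cells. The exact Clopper-Pearson 95% intervals, which cover counting error only, are wide enough that control 2 and *Angpt1*ΔNC overlap (77.4% to 84.0%, 62.0% to 70.5% and 52.8% to 64.8%). Shares were also taken after thinning cells to 2000 UMIs, with cells of fewer UMIs left out. The thinned shares were 52.2%, 35.4% and 37.2%. The free-RNA reference, blood endothelium, had 0.813% and 0.760% of cells with a *Slurp1* UMI in the controls and 0 of 182 cells in *Angpt1*ΔNC, which allows up to 1.65%. Median depth was 6329, 7304 and 7441.5 UMIs in that reference against 21528, 18747 and 20189 in cluster 5. Within cluster 5 the RNA was unevenly spread, since the tenth of cells richest in *Slurp1* held 51.5%, 65.6% and 56.4% of its UMIs and the highest cell had 429.

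Cluster 3 was next in the order for *Slurp1*, with 5.25, 0.0418 and 0.0468, a library range below that of cluster 5. Nearly all of the control 1 value came from few cells. In control 1, 9 of the 98 cluster 3 cells had 55 to 479 *Slurp1* UMIs each and held 1727 of the 1738 *Slurp1* UMIs of that cluster. The same 9 cells held 7401 of 10818 *Lypd2* UMIs, 174 of 247 *Ly6g6c* UMIs, 2651 of 3945 *Ly6a* UMIs and 16170 of 26248 UMIs of *Psca*, another family gene. Each of them had at least 63 UMIs of the corneal keratin *Krt12* and at least 24 of the conjunctival keratin *Krt13*, but together only 3 of 806 *Krt4* and 8 of 393 *Krt8* UMIs. No cell of cluster 3 in control 2 or *Angpt1*ΔNC reached 10 *Slurp1* UMIs. Without these 9 cells, which were singled out after their values were seen, control 1 was at 0.0357 for *Slurp1* in cluster 3. In the other 32 ordered labels *Slurp1* averaged at most 0.246 (TM10). In cluster 22 a *Slurp1* UMI was found in 0 of 89, 0 of 133 and 0 of 105 cells, which allows shares of up to 3.37%, 2.26% and 2.86%.

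*Lypd2*, a GPI-anchored member encoded beside *Slurp1*, had nearly the same distribution. Its level in cluster 5 was 41.7, 34.8 and 22.3 (32.9 ± 9.85, SD, n = 3 libraries), with clusters 3 and 5 holding 99.1% of 144173 UMIs. *Angpt1*ΔNC was the lowest of the 3 libraries. At least 1 UMI was found in 99.7% of cluster 5 cells of control 1 (interval 98.7% to 100.0%), 93.5% of control 2 (90.9% to 95.5%) and 84.1% of *Angpt1*ΔNC (79.2% to 88.2%), and thinning gave 94.9%, 84.7% and 72.9%. Blood endothelium had 6.10%, 3.80% and 1.10% at the depths above. In cluster 3 the *Lypd2* level was 33.0, 2.59 and 1.83, a range that overlaps that of cluster 5 through control 1 alone; without the 9 cells above, control 1 was at 10.5. Of the 959 cluster 5 cells with *Slurp1*, 950 also had *Lypd2*, whereas 322 cells had *Lypd2* and no *Slurp1*. Across the 34 labels the log2 levels of the 2 genes correlated at r = 0.967, a description over labels that share libraries and depth.

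TM10 came after clusters 3 and 5 for *Lypd2*, at 0.910, 0.850 and 0.0722. The controls lay well above *Angpt1*ΔNC there. At least 3 *Lypd2* UMIs were found in 13 cells of control 1, 8 of control 2 and 0 of 188 *Angpt1*ΔNC cells. All of the 13 and 8 cells had the fibroblast transcript *Dcn*, and 11 and 7 of them had no *Krt12* UMI. The ratio of *Lypd2* to *Krt12* UMIs in TM10 was 4.58 and 5.67 in the controls and 0.391 in *Angpt1*ΔNC. Over the 4 other labels compared, TM4, TM7, TM8 and cluster 20, it was 0.224 to 0.963 in the controls and 0.0667 to 0.5 in *Angpt1*ΔNC. *Slurp1* in TM10 had 18, 40 and 25 UMIs and ratios to *Krt12* of 0.75, 2.67 and 1.09, with *Angpt1*ΔNC between the controls. The share of TM10 cells with a *Lypd2* UMI was 17%, 16.8% and 3.19%, or 11.8%, 8.28% and 1.62% after thinning, at median depths of 6622, 6645 and 8135 UMIs.

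*Ly6g6c*, a little-studied member encoded in the class III region of the major histocompatibility complex, was sparse, with 1907 UMIs in all, 95.7% of them in clusters 3 and 5. Its level was 0.811, 0.187 and 0.0498 in cluster 3 and 0.366, 0.216 and 0.225 in cluster 5. These ranges overlap, and the first place of cluster 3 rests on control 1, whose level without the 9 cells was 0.310. In cluster 5, 24.9%, 18.2% and 24.8% of cells had a UMI, falling to 6.11%, 2.98% and 2.97% after thinning, against 1.22%, 1.52% and 0 of 182 cells (up to 1.65%) in blood endothelium. *Ly6g6c* went with *Slurp1* within cluster 5. Of its 302 positive cells there, 92.1% also had *Slurp1*, compared with 65.0% of the negative cells, and depth per cell was not matched between them.

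*Lypd3* (C4.4A), a GPI-anchored protein of stratified squamous epithelia, was shared by all 4 surface epithelial labels, clusters 2 to 5, which held 99.2% of its 46578 UMIs. The level was 12.3, 8.43 and 7.90 in cluster 5 (9.54 ± 2.40, SD, n = 3 libraries), 5.41, 6.01 and 6.53 in cluster 3, 2.23, 2.07 and 2.16 in cluster 4 and 1.86, 1.25 and 2.14 in cluster 2. Clusters 5, 3 and 4 had separate library ranges, while clusters 4 and 2 overlapped. Cluster 4 carries limbal keratins and cluster 2 adds cycling genes to them. At least 1 UMI was found in 98.6%, 97.8% and 97.8% of cluster 5 cells and 69.3%, 65.3% and 76.0% of cluster 4 cells. Thinned shares were 82.5%, 69.2% and 68.0% in cluster 5 and 28.4%, 28.3% and 31.9% in cluster 4. Blood endothelium had 2.44%, 0.380% and 1.10%. The next label, TM2, was at 0.0813.

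*Ly6d*, a marker of early B-lineage lymphocytes that keratinocytes also use, was highest in the lymphocyte label, cluster 22, at 5.27, 4.25 and 1.82 (3.78 ± 1.77, SD, n = 3 libraries). Cluster 4 followed at 0.0709, 0.244 and 0.165 without overlap. Cells with a *Ly6d* UMI made up 12.4%, 18% and 12.4% of 89, 133 and 105 cluster 22 cells (intervals 6.33% to 21.0%, 11.9% to 25.6% and 6.76% to 20.2%). Thinned shares were 9.52%, 15.8% and 13.6% of the 63, 95 and 81 cells with enough UMIs, so they cover a deeper set of cells. Blood endothelium had 0 of 246 cells, which allows up to 1.22%, then 0.380% and 0.549%, and cluster 22 cells were shallower, with medians of 2267, 2500 and 2531 UMIs. Most of the positive cells carried B cell transcripts. Of 48 cluster 22 cells with *Ly6d*, 47 had the B cell gene *Cd79a* and 0 had the T cell gene *Cd3e*, although 88 of the 327 cells had *Cd3e*. Another B cell gene, *Ms4a1*, was found in 30 of the 48 and not in the other 18. The B cell markers of cluster 22 were also lower in *Angpt1*ΔNC, as given above, and their part in the lower *Ly6d* level was not tested. Clusters 2 to 5, whose cells were more numerous, still held 68.8% of the 1145 *Ly6d* UMIs and cluster 22 held 25.5%. In cluster 4 up to 76 UMIs were found in a cell, while 3.38%, 4.54% and 6.55% of its cells had any.

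*Ly6a* (Sca-1), an interferon-inducible surface antigen of progenitor and endothelial cells, was highest in TM10 at 32.3, 24.0 and 20.4 (25.6 ± 6.09, SD, n = 3 libraries), with no overlap with the next label. At least 1 UMI was found in 96.9%, 98.8% and 96.8% of TM10 cells, and 94.9%, 91.1% and 91.4% after thinning. No label here is sure to lack *Ly6a*, so no free-RNA share is set beside it. EC4 (6.73, 7.43 and 16.6), EC2 (8.08, 6.32 and 12.8), cluster 3 (14.4, 2.25 and 7.98), SC (5.30, 4.49 and 12.4), TM11 (4.59, 7.50 and 7.27) and EC3 (5.26, 4.34 and 7.06) followed, and each overlapped its neighbour in this order. Without the 9 cells described above, control 1 was at 6.52 for *Ly6a* in cluster 3. In all 4 endothelial labels *Angpt1*ΔNC was above both controls, although SC held only 15 of its cells. The corneal cluster 5 was lower per cell, with 5.10, 2.97 and 1.57, while clusters 2 to 5 together held 55.5% of the 48282 UMIs.

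*Ly6c1*, a surface antigen of blood endothelium in mice, reached 7.26, 5.66 and 5.50 in TM10, 5.02, 4.63 and 7.61 in EC4, 4.08, 3.36 and 5.42 in EC2, 1.71, 1.56 and 5.45 in SC and 2.13, 1.84 and 1.81 in EC3. These 5 labels overlapped from neighbour to neighbour, and the next, cluster 13, was at 0.208 without overlap. TM10 held 43.2% and the endothelial labels 43.0% of 5691 UMIs. In TM10, 80.4%, 76.6% and 79.3% of cells had a UMI, or 62.4%, 50.3% and 54.1% after thinning. In the free-RNA reference, clusters 4 and 5, the shares were 17.4%, 9.98% and 10.9% at median depths of 17717, 15168.5 and 15135 UMIs. All 433 TM10 cells with *Ly6c1* also had *Ly6a*, as did 535 of all 549 TM10 cells. *Ly6a*, *Ly6c1* and the monocyte gene *Ly6c2* are close paralogs with stretches of near-identical sequence, so the split of UMIs among them is uncertain. *Ly6c2* itself had 161 UMIs, highest in cluster 23 at 0.0179, 0.405 and 1.13, where 1 *Angpt1*ΔNC cell held 42 of the 66 *Ly6c2* UMIs of that library in the cluster.

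*Ly6e*, an interferon-induced protein that modulates virus entry, was the member least concentrated in its leading label. Its highest label, EC2 at 2.94, 3.85 and 9.10 (5.30 ± 3.32, SD, n = 3 libraries), held 12.7% of the level summed over labels, compared with 86.2% for *Ly6d* in cluster 22. EC4 (3.57, 3.41 and 6.86), SC (2.62, 3.42 and 5.50), cluster 3 (4.17, 2.17 and 4.66), cluster 22 (2.70, 2.1 and 5.09) and EC3 (1.73, 2.23 and 5.49) followed with overlapping ranges. *Angpt1*ΔNC was the highest library in every one of these labels. It was above both controls in 23 of 34 labels and below both in 6, where the median over 7203 genes was 10 above and 13 below, and 5.61% of these genes reached 23. Among the other members *Lypd2* was most often below both controls, in 23 labels, and it was above both in 2. Of the genes, 10.98% were below both in at least as many labels. *Slurp1* was below both in 17 and above in 6. For *Lypd2* these labels include EC4 (0.0951, 0.0449 and 0 UMIs per 10,000), a part of its free-RNA reference. That reference as a whole was at 0.0758, 0.0368 and 0.0157, and the part of free RNA in these counts was not tested. In cluster 22, 20 of 30, 26 of 47 and 21 of 21 cells with *Cd79a* had *Ly6e*, as did 10.2%, 23.3% and 57.1% of the cells without *Cd79a*. No label is sure to lack *Ly6e*, so no free-RNA share is set beside these.

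*Lypd1* (Lynx2), a membrane-bound modulator of nicotinic receptors in neurons, was a gene of cluster 17, at 2.25, 2.50 and 0.873 (1.88 ± 0.878, SD, n = 3 libraries). Cluster 18 followed at 0.569, 0.587 and 0.0783 without overlap, and together they held 87.2% of 2588 UMIs. In cluster 17 the share of cells with a UMI was 35.6% of 466 (interval 31.3% to 40.2%), 41.6% of 924 (38.4% to 44.8%) and 27.0% of 892 (24.1% to 30.1%). Thinned shares were 26.1%, 27.6% and 14.0%. The reference, clusters 4 and 5, had 0.101%, 0.296% and 0.878% of cells at its greater depth, against medians of 4673.5, 4969 and 4607 UMIs in cluster 17. The highest cluster 17 cells had 25, 33 and 8 UMIs. In TM10 *Angpt1*ΔNC was instead above both controls, with 0.0456, 0.0577 and 0.556. Cells with a UMI there numbered 6, 3 and 54 (3.09%, 1.80% and 28.7%, thinned 0.562%, 1.27% and 12.4%). TM9 was at 0.0426, 0.106 and 0.267.

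**Figure D1:**
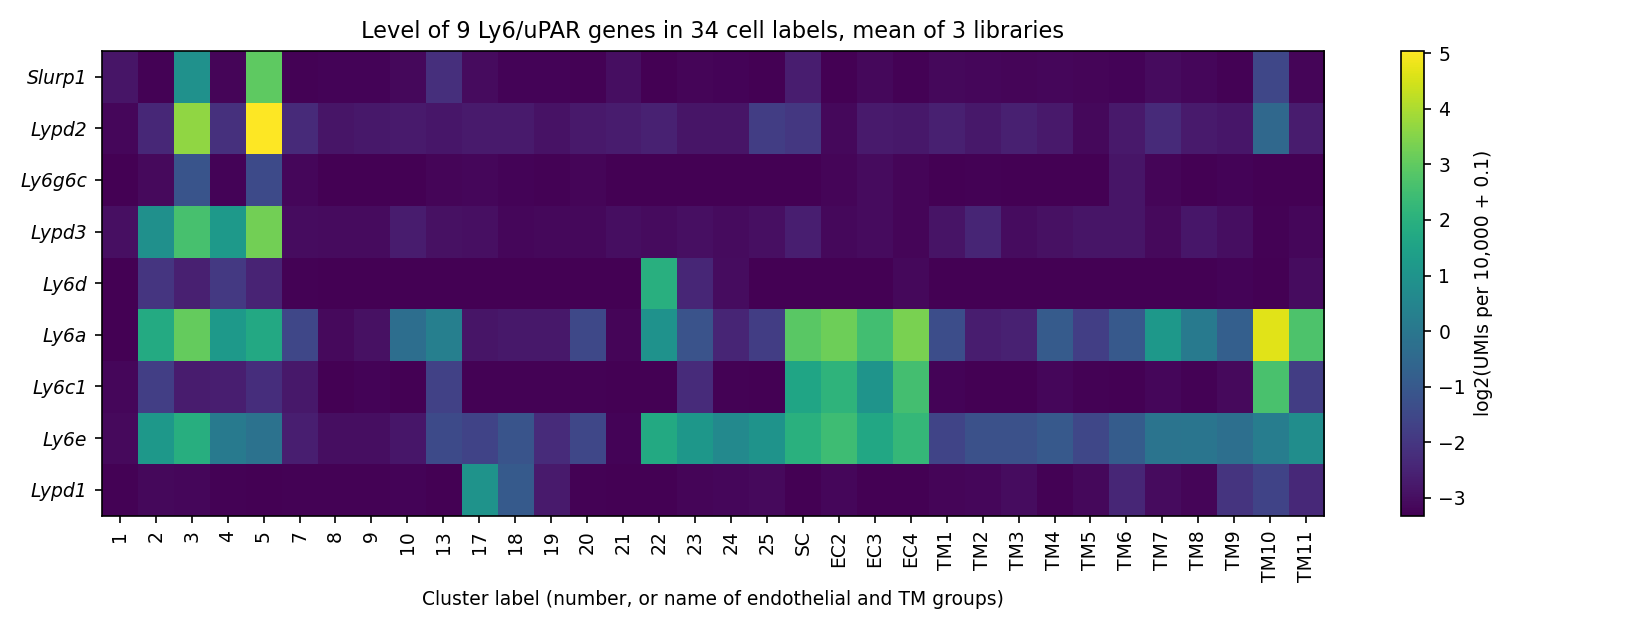
Mean UMIs per 10,000 of each of the 9 genes over the labels with at least 10 cells in every library, averaged over 3 libraries. *Slurp1* and *Lypd2* peak in cluster 5 (7.67 and 32.9), *Ly6d* in cluster 22 (3.78), *Ly6a* and *Ly6c1* in TM10 (25.6 and 6.14) and *Lypd1* in cluster 17 (1.88).

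**Figure D2:**
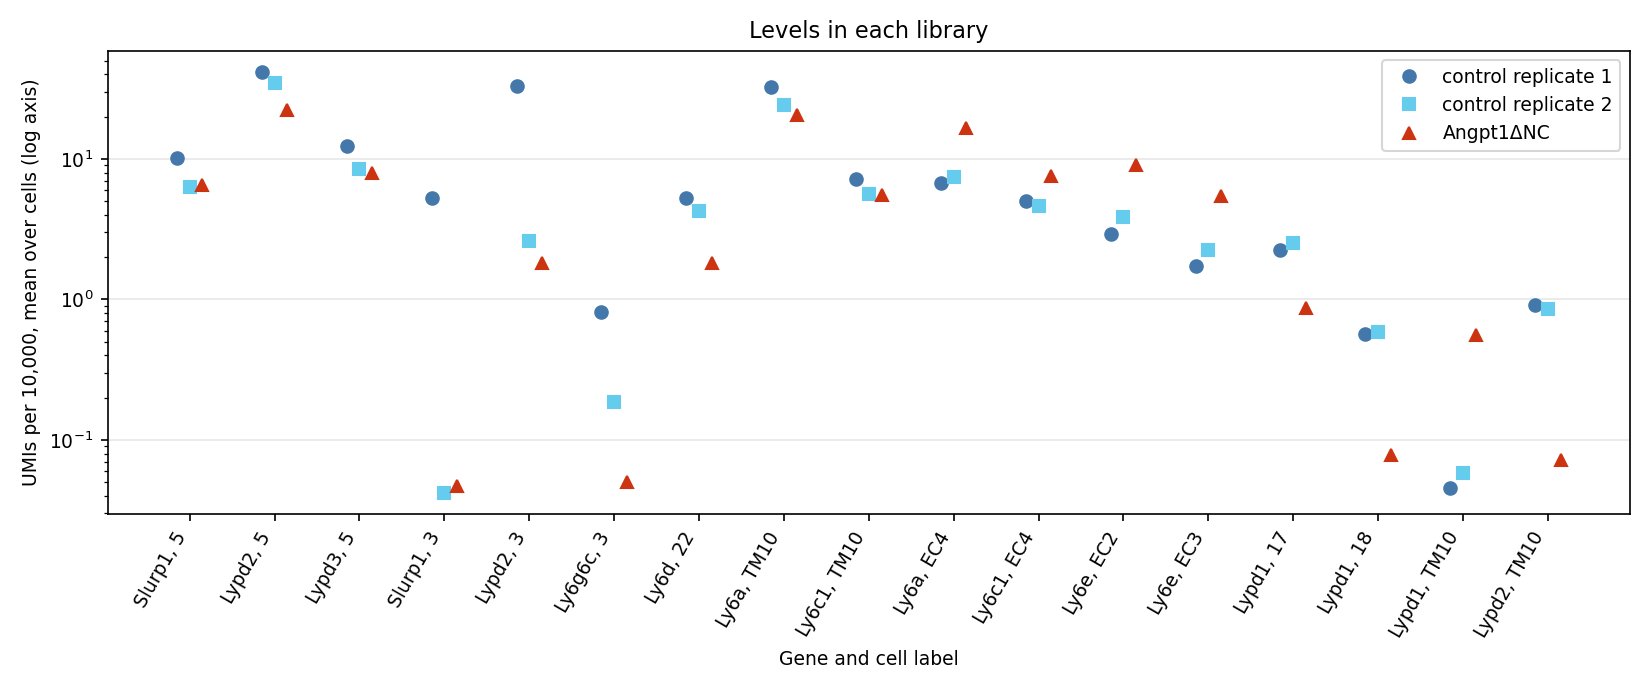
Mean UMIs per 10,000 of each gene in its leading labels, with a point for each library (2 control, 1 *Angpt1*ΔNC). In cluster 3 the control 1 value of *Slurp1* (5.25) stands far from control 2 (0.0418) and *Angpt1*ΔNC (0.0468).

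The members thus differed in how far their RNA was concentrated. The median share of the summed level in the leading label was 47.2% over the members and 10.4% over the 7203 genes that reached 0.5 UMIs per 10,000 in some label. The members were chosen with earlier results of these data known, and *Ly6g6c* did not reach that level. These medians are therefore from unlike sets, and their difference is no result about the family. Over all kept cells *Slurp1* amounted to 230, 108 and 82.8 UMIs per 1000000 UMIs of the library, *Lypd2* to 990, 592 and 307, and *Ly6e* to 62.9, 57.0 and 137. Such library totals combine how many cells of a type were captured with how much RNA each held, and the total does not tell them apart. The 5 genes nearest in pattern to each member were taken by Pearson's r of log2 levels over 34 labels. For *Slurp1* they were *Lypd2*, *Syt8*, *Fam83a*, *Clic3* and *Adtrp* (r from 0.967 to 0.911), and for *Lypd2* they were *Slurp1*, *Clic3*, *Syt8*, *Cyp4a12b* and *Fam83a* (0.967 to 0.927). *Ly6g6c* had *Cyp4a12b*, *Clic3*, *Gm2694*, *Gm9573* and *S100a7a* (0.978 to 0.940). *Lypd3* had *Tmprss11e*, *Hsd17b2*, *Tmprss11d*, the desmosomal cadherin *Dsg3* and *Krt16* (0.992 to 0.987). Those of *Ly6d* were *Tnfrsf4*, *Fcmr*, *Tnfrsf18*, *Il18r1* and *Gata3* (0.967 to 0.930), all highest in cluster 22, of which *Gata3* and *Il18r1* are known from T cells and innate lymphoid cells. For *Ly6a* they were *Xdh*, *Ly6c1*, *Slc20a1*, *Ly6e* and *Ddx10* (0.810 to 0.741), and for *Ly6c1* the angiopoietin receptor *Tek*, *Clec1a*, *Stmn2*, *Kdr* and *Cd34* (0.915 to 0.841). *Ly6e* had *Cmip*, *Slfn2*, *Ripk3*, *Tnfaip3* and *Ly6a* (0.829 to 0.760), and *Lypd1* had *Wnt6*, *Tmem267*, *Iqcj*, *Nkain3* and *Elobl* (0.796 to 0.716), of which only *Nkain3* was highest in cluster 17 and the others in cluster 18.

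The genotype comparison asks whether the members differed between *Angpt1*ΔNC and control cells of the same group. UMIs were summed per library in 7 cell groups and fitted with edgeR's quasi-likelihood test over all genes, called at a Benjamini-Hochberg adjusted p under 0.05. Each fit set 1 *Angpt1*ΔNC library against 2 controls with 1 residual degree of freedom, and the lone library was assumed to vary like the controls. Of 39 tests of members, 8 were called, 6 higher and 2 lower in *Angpt1*ΔNC, and these involved 5 of the 9 members. Over the same 7 fits 5.57% of 69359 tests of all genes were called. Levels in this comparison are summed UMIs per 10,000 after TMM scaling, and log2 differences are *Angpt1*ΔNC minus control with their SE.

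In blood endothelium (EC2 to EC4 summed; 246, 263 and 182 cells) 3 of the 4 members tested were called, all higher in *Angpt1*ΔNC, where 9.56% of 9280 genes were called. *Ly6e* was at 2.42, 2.93 and 7.98 and rose by 1.57 ± 0.16 on the log2 scale (edgeR adjusted p = 0.000105). *Ly6a* was at 6.13, 5.62 and 13.8 and rose by 1.23 ± 0.15 (edgeR adjusted p = 0.000293). *Ly6c1* was at 2.97, 2.90 and 5.66 and rose by 0.95 ± 0.15 (edgeR adjusted p = 0.00197). In each of these sums *Angpt1*ΔNC lay above both controls, which were close together. The mix of labels also differed, since EC3 made up 118 of 246, 118 of 263 and 58 of 182 cells and had the lowest mean of the 3 labels for each of these genes. Within EC3, *Ly6e* (1.73, 2.23 and 5.49) and *Ly6a* (5.26, 4.34 and 7.06) were highest in *Angpt1*ΔNC, whereas *Ly6c1* was not (2.13, 1.84 and 1.81). In EC2 and EC4, all 3 genes were highest in *Angpt1*ΔNC, by the values given above. How much of the summed differences came from the mix was not tested. The blood endothelial marker sums given above were also highest in *Angpt1*ΔNC in EC2, EC3 and EC4, and their part was not tested. The median log2 difference of the 4 members was 1.09, beside -0.03 over all genes tested. In male-typed cells (177, 211 and 60) the differences were 1.70, 1.75 and 1.57 for *Ly6e*, *Ly6a* and *Ly6c1*, as large as over all cells. The fourth member, *Lypd2*, had 15, 11 and 2 UMIs and was not called.

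In TM10 (194, 167 and 188 cells) 2 of 6 members tested were called, in opposite directions, where 11.6% of 8527 genes were called. *Lypd1* had 7, 10 and 89 UMIs and rose by 3.02 ± 0.37 (edgeR adjusted p = 2.97e-12). *Lypd2* had 110, 85 and 9 UMIs and fell by 3.76 ± 0.38 (edgeR adjusted p = 9.77e-17). The libraries did not overlap for either gene. The free-RNA reference of *Lypd2*, blood endothelium, also had its lowest share of positive cells in *Angpt1*ΔNC (6.10%, 3.80% and 1.10%). Its part in the *Lypd2* difference was not tested. *Lypd1* and *Lypd2* kept these directions in male-typed cells, with 3.79 and -4.02. The corneal marker *Aldh3a1* was also higher in *Angpt1*ΔNC TM10 cells (0.429, 0.251 and 1.59), with the corneal epithelial keratin *Krt12* at 0.190, 0.135 and 0.163, and their part in the *Lypd1* and *Lypd2* differences was not tested. *Ly6a* and *Ly6c1*, the most abundant members in TM10, had log2 differences of -0.36 ± 0.25 and -0.10 ± 0.23 and were not called. The median of the 6 members was -0.23, beside -0.02 over all genes.

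In cluster 4, the limbal epithelium (414, 507 and 641 cells), 2 of 6 members tested were called, where 11.9% of 10521 genes were called. *Ly6e* was at 0.520, 0.799 and 1.83 and rose by 1.47 ± 0.16 (edgeR adjusted p = 6.90e-17), a call lost only without the filter on low counts, where edgeR called 0 genes (adjusted p = 0.457). *Lypd2* had 129, 44 and 54 UMIs, with a log2 difference of -1.23 ± 0.29 (edgeR adjusted p = 0.000739), but this rested on control 1. Control 2 and *Angpt1*ΔNC were nearly alike for *Lypd2*, the difference without control 1 was -0.23, and DESeq2 gave an adjusted p of 0.988. The limbal markers of cluster 4 summed to 208, 226 and 179 and the corneal markers to 46.7, 36.6 and 30.2, both lowest in *Angpt1*ΔNC, and their part in these differences was not tested. *Lypd3* was at 1.99, 2.04 and 2.40, with a difference of 0.25 ± 0.16 that was not called. In male-typed cells it was 0.65 and was called (edgeR adjusted p = 0.00748). The 6 members had a median of -0.14, beside -0.01 over all genes.

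In cluster 5, the corneal epithelium (575, 505 and 270 cells), 1 of 8 members tested was called, where 2.23% of 11365 genes were called. *Ly6e* was at 0.695, 0.543 and 1.30 and rose by 1.07 ± 0.18 (edgeR adjusted p = 0.0398). In male-typed cells this difference was 0.53 with an adjusted p of 0.196, so the call depended on the cells used. The genes that fill this cluster were not called. *Slurp1* was at 10.9, 7.67 and 7.92 (log2 difference -0.23 ± 0.24), *Lypd2* at 44.5, 41.6 and 28.3 (-0.61 ± 0.20, edgeR adjusted p = 0.183) and *Lypd3* at 12.1, 9.32 and 9.20 (-0.22 ± 0.21). In male-typed cells the signs of *Slurp1* and *Lypd3* turned (0.11 and 0.12), also without a call. *Ly6a* was at 5.23, 2.81 and 1.76 (-1.19 ± 0.35, edgeR adjusted p = 0.149). Without the filter on low counts *Lypd2* and *Ly6a* were called (edgeR adjusted p = 0.018 and 3.80e-08). The marker sums of this cluster also differed between libraries. The corneal sum given above was lowest in *Angpt1*ΔNC, and the limbal sum was highest there (128, 134 and 147), with the limbal keratin *Krt15* at 0.978, 3.13 and 16.5. Their part in the values of the members was not tested. The median of the 8 members was -0.38, beside -0.02 over all genes.

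In cluster 3 (98, 100 and 192 cells) 0 of 8 members tested were called, where edgeR called 0.00% of 8953 genes, although 521 genes had an unadjusted p under 0.05 and DESeq2 called 25. *Slurp1* had 1738, 9 and 21 UMIs and a log2 difference of -6.52 ± 3.15 (edgeR adjusted p = 0.808), which was -0.07 without control 1 and was called only without the filter on low counts (adjusted p = 2.34e-49). *Lypd2* likewise had -3.84 ± 1.61, and -1.20 without control 1. The 9 cells described above are part of these control 1 sums. *Lypd3* was at 4.96, 6.57 and 6.50 (0.17 ± 0.28). The members had a median of -0.32, beside -0.04 over all genes.

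In cluster 17 (466, 924 and 892 cells) 0 of 5 members tested were called by edgeR, where 0.288% of 11444 genes were called, that is 33, while 2338 had an unadjusted p under 0.05 and DESeq2 called 190. *Lypd1* was at 2.20, 2.48 and 0.929, with *Angpt1*ΔNC below both controls by a log2 difference of -1.34 ± 0.17 (edgeR adjusted p = 0.0712). The call changed with the processing, since DESeq2 gave an adjusted p of 0.00036 and male-typed cells gave -1.95 with an edgeR adjusted p of 1.96e-06. The smooth muscle marker *Acta2* of cluster 17 was also lower in *Angpt1*ΔNC (16.6, 8.96 and 4.6), and its part in the *Lypd1* values was not tested. In TM1, a keratocyte label (159, 148 and 115 cells), 0 of the 2 members tested, *Ly6a* and *Ly6e*, were called by edgeR, where 4.79% of 9269 genes were called, 444 in all, with 1374 at an unadjusted p under 0.05 and 39 called by DESeq2. Their differences were -0.40 ± 0.36 and -0.50 ± 0.39, and both turned positive without control 1 (2.52 and 1.31). The keratocyte markers of TM1 summed to 162, 160.5 and 80.2, and their part in these values was not tested. Differences between cell groups in these effects were not tested.

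**Figure D3:**
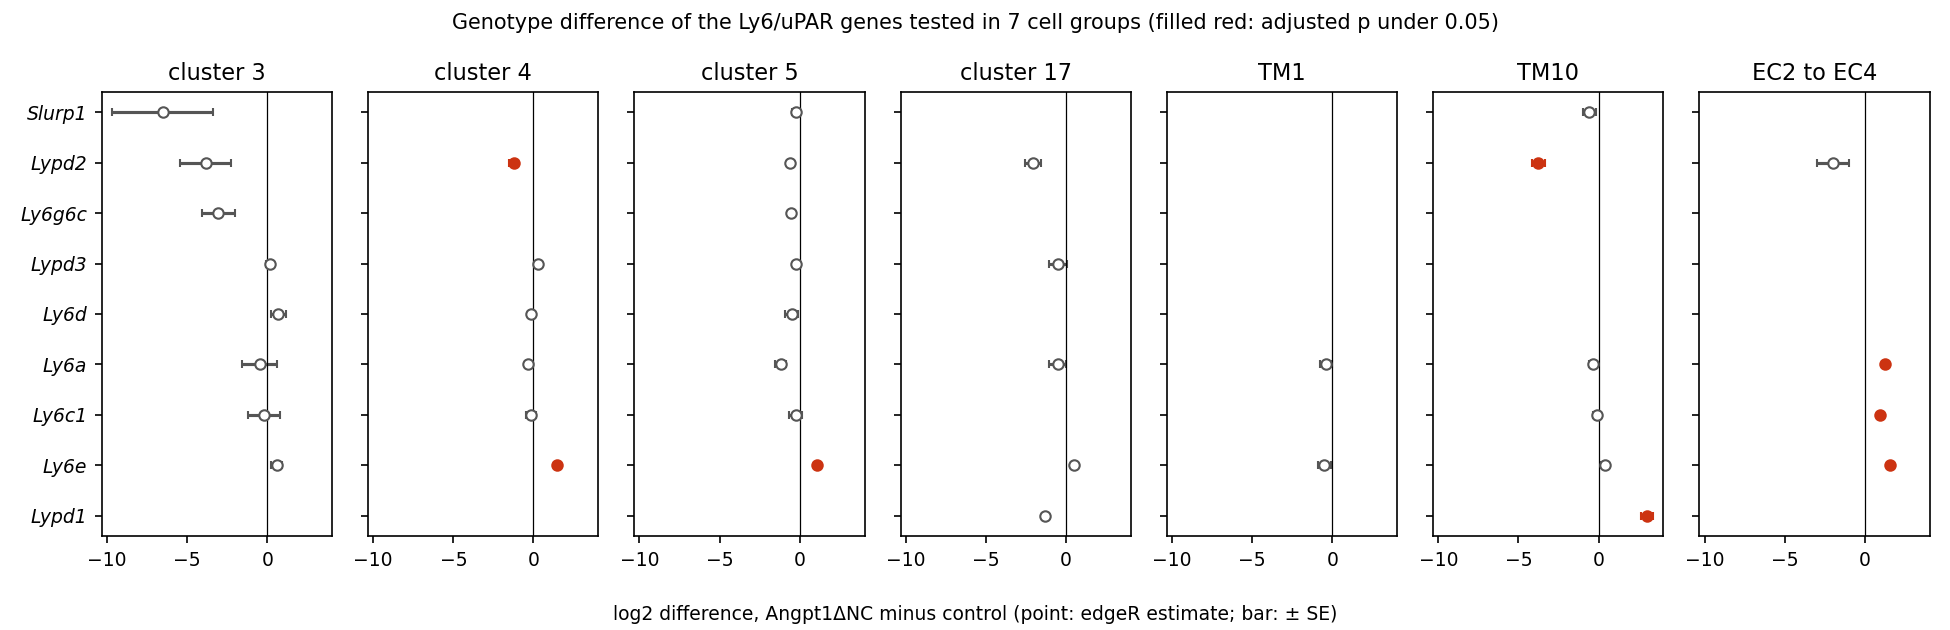
Log2 difference (*Angpt1*ΔNC minus control) of each tested member in the 7 cell groups, with bars of 1 SE and called genes marked. *Ly6e* is above 0 with a call in EC2 to EC4 (1.57), cluster 4 (1.47) and cluster 5 (1.07), and *Lypd2* lies lowest among the called values in TM10 (-3.76).

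Of 33 other family genes listed, 28 had a row in the matrices, and 5 of these reached a mean of 0.5 UMIs per 10,000 over the 3 libraries in a label. *Plaur*, the urokinase receptor, reached 15.1, 15.5 and 12.5 in EC3. *Cd59a*, an inhibitor of the complement attack complex, was at 8.09, 8.03 and 6.57 in cluster 10. *Gpihbp1*, which carries lipoprotein lipase across capillary endothelium, was at 1.65, 1.77 and 1.08 in EC4. *Psca* was at 76.1, 0.0655 and 4.07 in cluster 3, and control 1 without the 9 cells described above was still at 30.8. *Ly6c2*, given above, reached the mean through the *Angpt1*ΔNC cells of cluster 23. *Ly6f*, *Ly6l*, *Lypd4*, *Tex101* and *Spaca4* had 0 UMIs in the 26008 kept cells.

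All 17 listed partners had a row, and 3 of them reached this mean. *Agr2*, a ligand of LYPD3, was at 0.644, 0.641 and 1.22 in cluster 3, the urokinase gene *Plau* at 7.18, 5.07 and 3.29 in cluster 24, and *Klf4* at 18.9, 16.9 and 12.7 in TM6. No nicotinic receptor subunit had a mean of 0.5, although single libraries were above it. The highest mean, 0.459, was that of the muscle-type subunit *Chrna1* in TM5, at 0.651, 0.585 and 0.141. *Chrnb3* was at 0.282, 0.0284 and 0.612 in cluster 7, and *Chrna2* had no UMI. *Chrna7*, the neuronal subunit most often linked to SLURP1, had 97 UMIs in all, with its highest level in cluster 7.

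These other genes were tested in the same 7 fits. In cluster 5, where *Slurp1* and *Lypd3* are high, 2 of 16 were called (2.23% of all genes tested): *Agr2* rose by 2.49 ± 0.38 (52, 20 and 106 UMIs, edgeR adjusted p = 0.0271) and *Plau* fell by 1.04 ± 0.19 (2602, 1588 and 535 UMIs, edgeR adjusted p = 0.0488). In cluster 4, 2 of 11 were called (11.9% of all genes), *Agr2* higher (86, 82 and 209 UMIs) and *Psca* lower (9, 18 and 2 UMIs). *Plau* was the gene called in TM10 (1 of 5, and 11.6% of all genes), where it fell by 1.42 ± 0.38, and in blood endothelium (1 of 7, and 9.56% of all genes), where it rose by 1.89 ± 0.37 (12, 27 and 45 UMIs). In the last case 38 of the 45 UMIs were in EC4, and *Plau* in EC3 was lowest in *Angpt1*ΔNC (0.0810, 0.0527 and 0.0411). The part of the mix of labels described above was not tested. For *Psca* in cluster 4, cells with a UMI made up 1.21%, 3.55% and 0.312%, beside 0.847%, 4.24% and 0 of 58 cells in EC3. The part of free RNA in the *Psca* call was not tested. Each of these calls except that of *Plau* in blood endothelium was lost under at least 1 alternative, for example *Agr2* in cluster 5 with equal numbers of cells (adjusted p = 0.067) and *Plau* there in male-typed cells (adjusted p = 0.0613). In cluster 3, cluster 17 and TM1 edgeR called 0 of 10, 0 of 9 and 0 of 6. *Klf4*, a regulator of *Slurp1*, was at 6.19, 4.48 and 6.06 in cluster 5, with a difference of 0.18 ± 0.22 that was not called.

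In the mm10 annotation, 6 of the 9 members lie on chromosome 15 within 325 kb, 5 of them on the minus strand. *Slurp1* (ENSMUSG00000022596) spans chr15:74724318-74728034 and *Lypd2* (ENSMUSG00000022595) chr15:74732247-74734329, 4.21 kb apart on the same strand. *Ly6d*, *Ly6e*, *Ly6a* and *Ly6c1* follow at chr15:74762056-74763620, chr15:74955051-74959905, chr15:74994877-74998031 and chr15:75044018-75048830. *Ly6e*, *Ly6a* and *Ly6c1*, the members called higher in blood endothelium, are thus next to each other among the members, with *Ly6e* on the plus strand. *Lypd1* lies at chr1:125867622-125913101, *Lypd3* at chr7:24636550-24641118 and *Ly6g6c* at chr17:35065388-35070050. Genes on the opposite strand overlap *Slurp1* (*Them6*), *Lypd1* (*Gpr39*), *Lypd3* (*Gm26550*) and *Ly6g6c* (*Mpig6b*). How strand was used in counting is not given in the sources used here, so UMIs of these pairs may not be fully separated.

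Promoter windows of 250 bases before the start were matched in RefSeq (GRCm38.p6) for 4 of the 9 members, *Lypd1*, *Lypd3*, *Ly6c1* and *Ly6g6c*. Those of *Slurp1*, *Lypd2*, *Ly6d*, *Ly6a* and *Ly6e* were not used here. Since *Ly6c1* was called higher in *Angpt1*ΔNC endothelium together with *Ly6a* and *Ly6e*, 1 of its 2 windows, chr15:75048838-75049087, minus strand, 7 bases from the annotated start, is shown 5′ to 3′. Capitals mark the match to GGAAG, the core read by ETS factors of endothelial cells, which occurs here as its reverse complement CTTCC. On both strands GGAAG had 1 match in this window, and 64.1% of 32851 promoter windows of the same length held it. The letters of TTCNNNGAA, the core of STAT motifs, searched on both strands and held by 7.02% of the windows, are not in this window. The other *Ly6c1* window, chr15:75048664-75048913, overlaps the one shown and starts from a site 167 bases from the annotated start. It had 4 matches to GGAAG and 0 to TTCNNNGAA.
Ly6c1: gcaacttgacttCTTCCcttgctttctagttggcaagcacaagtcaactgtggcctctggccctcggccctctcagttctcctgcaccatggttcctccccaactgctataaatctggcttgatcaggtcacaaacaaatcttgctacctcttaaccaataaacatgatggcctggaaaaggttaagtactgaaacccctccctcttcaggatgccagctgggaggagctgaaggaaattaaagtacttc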

How the data were processed

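The deposited matrices hold UMI counts per gene and cell, made by the authors with Cell Ranger (version 2.1.1 per the labels, 3.0.2 in the matrix headers) on mm10. The authors removed low-quality cells and doublets (scDblFinder), integrated the libraries in Seurat 3.1.3 and deposited tables of other values, the integrated expression per cell with cluster labels, of which the labels and barcodes alone were used. How strand was handled is not given in the sources used here. Counts were summed or averaged per label and library. The members and gene lists were chosen with earlier results of these data known. The genes named are the 9 members, listed family and partner genes that reached a mean of 0.5 UMIs per 10,000 in a label or were called, and the 5 genes most similar to each member (log2 after adding 0.1, among genes reaching 0.5); others were singled out after their values were seen. Of 33 listed family genes, *Ly6m*, *Ly6g2*, *Lypd9*, *Lypd10* and *Lypd11* had no row. Genotype fits used edgeR 4.0.16 (TMM, filterByExpr, quasi-likelihood) in R 4.3.3 and were tested on simulated data. Alternatives were DESeq2 1.42.0, its size factors in edgeR, no filter on low counts, male-typed cells (a UMI of *Ddx3y*, *Eif2s3y*, *Kdm5d* or *Uty* and none of *Xist*), equal numbers of cells, and each library left out in turn. Shares were thinned to 2000 UMIs per cell, and cells with fewer UMIs were left out of the thinned shares. Intervals are exact Clopper-Pearson 95% intervals, and the limit for a share of 0 is 3 counts.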

Additional observations from a re-analysis of the deposited data

Results flagged for a closer look

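The genotype difference of *Lypd1* had opposite signs in different stromal labels. Its log2 difference (*Angpt1*ΔNC minus control) was -1.34 in cluster 17 and 3.02 in TM10, with *Angpt1*ΔNC below both controls in the first and above both in the second. *Ly6a* likewise had -1.19 in cluster 5, the corneal epithelium, and 1.23 in EC2 to EC4, the blood endothelium. Among these values those in TM10 and EC2 to EC4 passed the edgeR threshold and those in cluster 17 and cluster 5 did not. The difference between the cell groups was not tested for either gene.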

How the results depend on the processing

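Of 193 recomputed genotype differences of members with a test, 170 kept their direction and their side of the threshold, 8 newly passed it, 6 no longer did and 9 changed sign, none of them called in either setting. The calls in EC2 to EC4 and TM10 held in all 5 alternatives with a test. Without the filter on low counts, *Slurp1*, *Lypd2* and *Ly6g6c* in cluster 3 (-6.47, -3.80 and -3.02) and *Lypd2* and *Ly6a* in cluster 5 (-0.62 and -1.21) passed, and *Lypd2* and *Ly6e* in cluster 4 (-1.21 and 1.48) did not. In male-typed cells *Lypd3* in cluster 4 (0.65) and *Lypd1* in cluster 17 (-1.95) passed and *Ly6e* in cluster 5 (0.53) did not. With equal numbers of cells *Lypd2* in cluster 4 (-1.01) and *Ly6e* in cluster 5 (1.07) did not pass. With DESeq2 *Lypd1* in cluster 17 (-1.33) passed and *Lypd2* in cluster 4 (-1.23) did not. The sign changed in male-typed cells for *Ly6c1* in cluster 3 (0.27), cluster 4 (0.23) and TM10 (0.0665), *Slurp1* in cluster 5 (0.11) and TM10 (0.15) and *Lypd3* in cluster 5 (0.12). With equal numbers of cells it changed for *Ly6c1* in cluster 3 (0.44), *Ly6d* in cluster 4 (0.19) and *Ly6a* in cluster 17 (0.24).

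Leaving out a control gave 78 further differences that have no test. Of these, 63 moved by less than 1 SD of the controls and 15 by more, and 11 changed sign, none of a called difference. In cluster 3 the values ran from -7.32 to -0.0660 for *Slurp1*, -4.69 to -1.20 for *Lypd2*, -1.24 to 1.55 for *Ly6a*, -0.87 to 1.45 for *Ly6c1* and -3.66 to -1.52 for *Ly6g6c*. In cluster 17 they ran from -1.87 to -1.67 for *Lypd2*, -0.45 to -0.33 for *Lypd3* and 0.50 to 0.51 for *Ly6e*. In TM1 they ran from -1.24 to 2.52 for *Ly6a* and -1.21 to 1.31 for *Ly6e*. In TM10 *Lypd1* ran from 2.46 to 3.17 and *Lypd2* from -3.52 to -3.45, and *Lypd2* in EC2 to EC4 from -1.70 to -1.17.

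Counts of genes called moved with the setting. Cluster 3 had 399 without the filter, 5 in male-typed cells, 3 with equal numbers of cells and 25 with DESeq2. Cluster 4 had 0 without the filter, 718 with equal numbers and 213 with DESeq2. Cluster 5 had 1209 without the filter and 102 with equal numbers. Cluster 17 had 15 with DESeq2-type size factors, 13 without the filter, 443 in male-typed cells, 0 with equal numbers and 190 with DESeq2. TM1 had 143 in male-typed cells, 33 with equal numbers and 39 with DESeq2. TM10 had 388 with equal numbers and 160 with DESeq2. EC2 to EC4 had 1344 with DESeq2-type size factors and 278 with DESeq2. The cause was not tested.

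Leaving out each library in turn gave a *Ly6c1* level in TM10 minus EC4 from -0.542 to 1.64, *Ly6e* in EC2 minus EC4 from -0.0914 to 1.34 and *Ly6g6c* in cluster 3 minus cluster 5 from -0.102 to 0.208, so these first places changed. No other first place did. All 18 recomputed levels moved by less than 1 SD. Thinning moved 8 of 9 shares, and 17 of 18 recomputed sets of 5 similar genes changed.

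No paired analysis was possible because the libraries are separate pools of mice and no label pairs the *Angpt1*ΔNC library with a control. With 1 *Angpt1*ΔNC library and 1 residual degree of freedom, p-values rest on the spread between 2 control pools and on variance shared between genes. Pool, sex and genotype cannot be told apart over all cells. Low counts limit *Ly6g6c*, *Ly6d* and *Lypd1* outside their leading labels.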
